A study of Mus musculus with 56 samples.

Results

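Etnppl and 5 other genes of ethanolamine phospholipid metabolism (Etnk1, Etnk2, Pcyt2, Selenoi and Phospho1) were followed in the anterior hypothalamus of mice fed only by day or only by night. These were 6 of the 17564 genes in the deposited table, and all 6 were expressed well enough to be tested. Etnppl was chosen by its difference in daily rhythm between the regimens, where its F statistic ranked 6 of 16085 genes, so its rhythm is described here with no test. The other members were selected on their place in the pathway.

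RNA was taken from 56 adult female C57BL/6J mice aged 9 weeks, all kept under 12 h of light and 12 h of darkness. In day time-restricted feeding (DRF) chow was given from ZT0, when the lights went on, to ZT12, and in night time-restricted feeding (NRF) from ZT12 to ZT24. After 7 days, 4 mice per regimen were killed every 4 h from ZT0 to ZT24, which gives 14 groups and 28 mice per regimen. Each mouse was sampled once, the ZT24 mice are not the ZT0 mice, and no freely fed group is among these samples. The libraries of replicates 3 and 4 of DRF at ZT16 stand apart from the other mice of their group, and several results are given with and without them.

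Phosphatidylethanolamine is an abundant membrane phospholipid, and most cells make part of it by the CDP-ethanolamine branch of the Kennedy pathway. Ethanolamine kinases (Etnk1 and Etnk2) phosphorylate ethanolamine, Pcyt2 activates the product to CDP-ethanolamine at the step that usually limits the rate, and Selenoi, a selenoprotein, transfers the head group to diacylglycerol. Phosphoethanolamine can instead be removed. Etnppl, a pyridoxal phosphate enzyme that in brain is found mainly in astrocytes, cleaves it to acetaldehyde, ammonia and phosphate, and Phospho1 is a phosphatase of phosphoethanolamine and phosphocholine known from bone mineralization.

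Etnppl lies on chromosome 3 (130617448-130637521, plus strand, GRCm38), Etnk1 on chromosome 6 (143167221-143232307, plus strand), Etnk2 on chromosome 1 (133363572-133380336, plus strand), Pcyt2 on chromosome 11 (120610087-120617936, minus strand), Selenoi on chromosome 5 (30232581-30272427, plus strand) and Phospho1 on chromosome 11 (95824499-95832140, plus strand). All 6 are protein coding. Phospho1 overlaps Zfp652 on its own strand and Abi3 on the other, and its read numbers were fractions in all 56 mice, so its reads are shared with other genes and its values are uncertain. Etnk1 overlaps the antisense gene 1700126G02Rik on the other strand over 20052 bases. The library kit is not described as stranded, so reads of the pair cannot be told apart.

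RefSeq start-site windows (GRCm38.p6, 250 bases before to 50 after the start) were matched for 5 of the 6 genes. Those of Etnppl are shown because the results turn on this gene, that of Selenoi because it holds the same element as an Etnppl start, and that of Phospho1 because it holds the only clock-type E-box among the 5 genes. Capitals mark matches on either strand to the E-box CACGTG, the D-box TTATGTAA, the glucocorticoid half-site AGAACA, the cAMP response element TGACGTCA, its half-site TGACG (which the full element contains) and the ROR and REV-ERB element AGGTCA.
Etnppl, first start (chr3:130617198-130617497, plus strand): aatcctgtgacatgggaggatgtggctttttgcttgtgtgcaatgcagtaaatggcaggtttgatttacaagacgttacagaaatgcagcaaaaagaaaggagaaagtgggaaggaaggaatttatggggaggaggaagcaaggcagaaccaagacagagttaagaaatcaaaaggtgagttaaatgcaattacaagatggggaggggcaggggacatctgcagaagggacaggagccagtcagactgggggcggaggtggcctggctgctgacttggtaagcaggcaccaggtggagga
Etnppl, second start (chr3:130617325-130617624, plus strand): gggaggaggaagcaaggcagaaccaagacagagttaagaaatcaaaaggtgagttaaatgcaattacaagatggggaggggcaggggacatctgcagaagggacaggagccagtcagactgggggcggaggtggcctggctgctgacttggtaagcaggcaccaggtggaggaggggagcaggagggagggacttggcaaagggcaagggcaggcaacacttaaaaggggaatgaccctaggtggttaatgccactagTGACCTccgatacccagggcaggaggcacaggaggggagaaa
Selenoi (chr5:30232331-30232630, plus strand): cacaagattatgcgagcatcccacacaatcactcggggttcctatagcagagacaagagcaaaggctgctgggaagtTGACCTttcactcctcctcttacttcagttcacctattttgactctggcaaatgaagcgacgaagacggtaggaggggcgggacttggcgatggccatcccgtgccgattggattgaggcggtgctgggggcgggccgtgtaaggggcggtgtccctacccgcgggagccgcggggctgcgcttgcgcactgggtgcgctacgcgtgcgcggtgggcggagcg
Phospho1 (chr11:95824250-95824549, plus strand): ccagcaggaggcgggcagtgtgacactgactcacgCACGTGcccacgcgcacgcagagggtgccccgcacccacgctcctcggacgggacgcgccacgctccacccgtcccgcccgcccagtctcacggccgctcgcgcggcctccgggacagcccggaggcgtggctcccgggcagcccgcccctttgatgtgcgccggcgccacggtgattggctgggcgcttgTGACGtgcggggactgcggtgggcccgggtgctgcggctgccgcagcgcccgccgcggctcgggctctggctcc

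The first Etnppl window held none of the 6 elements. The second held AGGTCA on the minus strand, from base 9 to base 14 after the start, and Selenoi held it on the minus strand from base -173 to base -168. This element occurred in 16.3% of the 32851 mouse windows. The E-box of Phospho1, from base -215 to base -210, is found in 7.15% of all windows. TGACG, present in 20.8% of windows, occurred in those of Etnk1 (at 3 positions), Etnk2 and Phospho1. The D-box (0.938% of windows), the glucocorticoid half-site (19.0%) and the full cAMP response element (1.79%) were in none of the members' windows. These are matches of letters and say nothing about binding.

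In both regimens Etnppl transcript was lower at the end of the feeding window than at its start, but it was high at different times of day. Values are in CPM, the reads of a gene relative to the size of its library as scaled by the authors. In DRF mice at ZT0, when food was given, Etnppl was at 110.4, 114, 115 and 118 CPM, a mean of 114 ± 3.17 (SD, n = 4). It was at 88.1, 89.1, 95 and 95.4 CPM at ZT4 (91.9 ± 3.83), below every ZT0 mouse. The DRF mice at ZT8 had 77.2, 80.1, 82.2 and 99.1 CPM (84.7 ± 9.87). These were joined at ZT12, the end of the feeding window, by similar values of 73.4, 86.0, 90.1 and 90.7 CPM (85.0 ± 8.04). Etnppl was higher again in the dark, while these mice had no food. At ZT16 the values were 91.9, 93.3, 93.4 and 115 CPM (98.3 ± 11.0), at ZT20 they were 100.6, 101, 108 and 117 CPM (107 ± 7.49), and at ZT24 they lay close together at 107, 108, 109 and 109 CPM (108 ± 1.0). The ZT24 mice were just below the ZT0 mice, without overlap, although both were taken at the start of the light phase. Of all genes tested, 9.54% did not overlap between these groups.

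In NRF mice Etnppl was low throughout the light phase, when no food was given. The values were 61.9, 68.5, 75.8 and 77.0 CPM at ZT0 (70.8 ± 7.00), 57.4, 63.3, 78.2 and 78.6 CPM at ZT4 (69.4 ± 10.7) and 65.4, 69.5, 71.1 and 73.3 CPM at ZT8 (69.8 ± 3.34). These 3 time points overlap throughout. At ZT12, the hour at which food became available, Etnppl was at 93.6, 96.0, 104 and 110.5 CPM (101 ± 7.68), above every mouse of the preceding 12 h. It was still at 92.7, 96.8, 106 and 112 CPM 4 h into feeding, at ZT16 (102 ± 8.75). It was lower late in the night, at 77.0, 81.6, 82.7 and 87.2 CPM at ZT20 (82.1 ± 4.18) and at 65.1, 75.4, 75.8 and 84.2 CPM at ZT24 (75.1 ± 7.82).

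**Figure D1:**
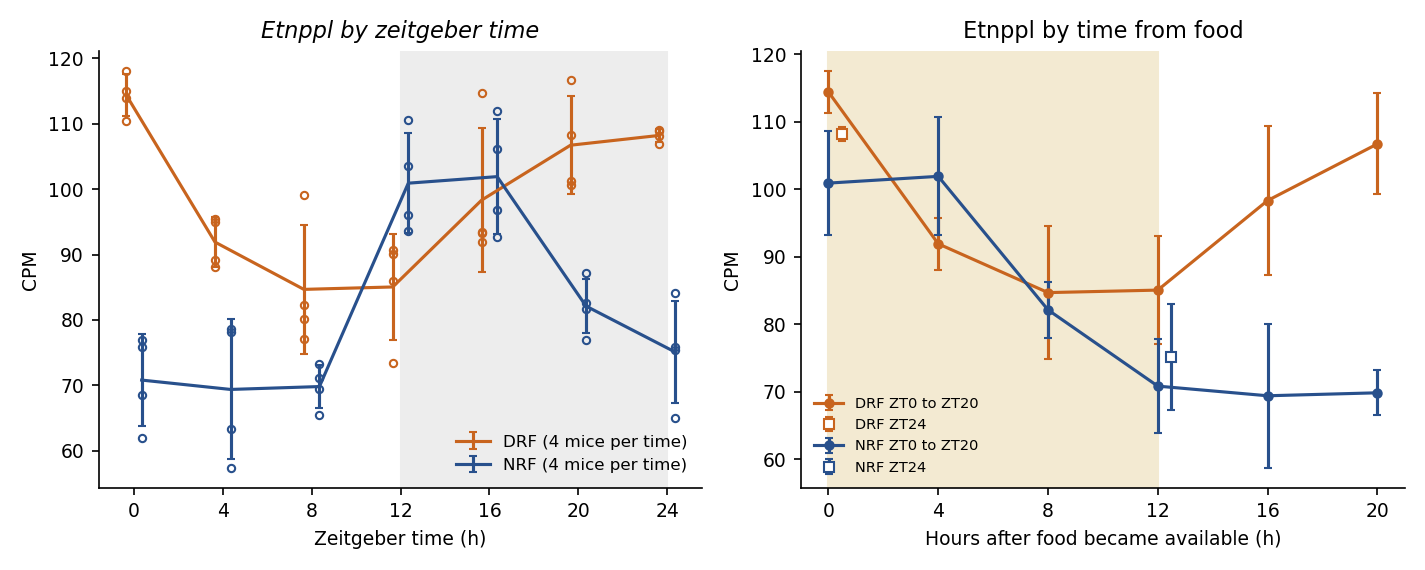
Etnppl in CPM (vertical axes, which do not start at 0) against zeitgeber time (left, darkness shaded) and against hours after food became available (right, feeding window shaded). Circles on the left are single mice, lines and bars on both sides are means ± SD of 4 mice, and squares on the right are the ZT24 groups. DRF mice run from 114 CPM at ZT0 to 84.7 CPM at ZT8 and back, whereas NRF mice reach 101 CPM at ZT12 and 102 CPM at ZT16 from 69.8 CPM at ZT8.

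Ordered by mean, the 14 groups ran from DRF at ZT0 to NRF at ZT4. The first group did not overlap with the second, DRF at ZT24, and from there on each group overlapped with the next. The mean of the highest time point was 1.35 times that of the lowest in DRF and 1.47 times in NRF. The 4 DRF and 4 NRF mice did not overlap at 6 of the 7 time points. DRF was the higher at ZT0 (1.62-fold), ZT4 (1.32-fold), ZT8 (1.21-fold), ZT20 (1.30-fold) and ZT24 (1.44-fold), and the lower at ZT12 (0.843-fold). They overlapped at ZT16. Of all 16085 genes, 14.5% did not overlap in either direction at ZT0, 14.1% at ZT4, 9.69% at ZT8, 6.34% at ZT12, 7.95% at ZT16, 8.21% at ZT20 and 7.73% at ZT24. Since Etnppl was selected on this contrast, these counts are a description.

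Set against the meal rather than the light, the curves were close at 8 h after food became available and less so at the other hours. When food became available Etnppl was at 114 CPM (ZT0) and 108 CPM (ZT24) in DRF and 101 CPM in NRF. At 4 h it was lower in DRF (91.9 CPM) than in NRF (102 CPM), and at 8 h it was at 84.7 and 82.1 CPM. At 12 h it was at 85.0 CPM in DRF, against 70.8 CPM (ZT0) and 75.1 CPM (ZT24) in NRF. The regimens lay further apart during the fast. At 16 h after food became available the mean was 98.3 CPM in DRF and 69.4 CPM in NRF, and at 20 h it was 107 and 69.8 CPM. A 24-h cosine fitted to log2(CPM + 1) peaked at ZT21.7 ± 0.63 h (SE) in DRF and at ZT15.2 ± 0.44 h in NRF, that is 6.47 ± 0.77 h later in DRF, for meals 12 h apart. Counted from the meal, the fitted peaks were at 21.7 h in DRF and 3.25 h in NRF. The amplitude was 0.22 ± 0.04 in DRF and 0.30 ± 0.04 in NRF on the log2 scale, against medians over all genes tested of 0.06 and 0.07. Without ZT8 the peaks were 7.51 h apart.

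The mean level of Etnppl over the day was higher in DRF. The gene was chosen by another measure, the rhythm difference, but this mean is not wholly free of it. Single mice ranged from 73.4 to 118 CPM (median 97.3, n = 28) in DRF and from 57.4 to 112 CPM (median 77.6, n = 28) in NRF, so the regimens overlap when time is ignored. The mean of the time points was 0.28 higher in DRF on the log2(CPM + 1) scale (SE 0.03, 95% confidence interval 0.22 to 0.35, 1.22-fold, limma adjusted p = 2.23e-07). At that threshold 5.6% of the genes tested were higher in DRF and 4.86% were lower. ZT0 and ZT24 mark the same phase and both were high in DRF, so part of the rhythm that chose Etnppl enters this difference. Without ZT0, so that no phase is repeated, it was 0.21 (limma adjusted p = 0.00101). Without ZT24 it was 0.24 (limma adjusted p = 9.72e-05). The mean level in the cosine fit, on the log2(CPM + 1) scale, was 6.598 in DRF and 6.371 in NRF.

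Etnppl is an astrocyte gene, and in tissue RNA more astrocytes and more transcript per astrocyte cannot be told apart. All 10 astrocyte markers and all 9 anterior hypothalamus markers (Avp, Oxt and Six3 among them) were detected. The summed level of the astrocyte markers spanned 3669 to 4290 CPM in DRF and 3568 to 4041 CPM in NRF. By the same limma test Aldh1l1 (0.09, adjusted p = 0.00991) and Sox9 (0.13, adjusted p = 0.00606) were higher in DRF, Aqp4 was lower (-0.21, adjusted p = 0.0015) and the other 7 did not pass, with a median difference of 0.03 over the 10. The red blood cell genes Hbb-bs (0.53), Hba-a1 (0.57) and Alas2 (0.47) were all higher in DRF, with limma adjusted p from 0.00838 to 0.0182, and their sum spanned 159 to 1666 CPM in DRF and 137 to 368 CPM in NRF. Within each regimen Etnppl showed little relation to that sum (Spearman's rho -0.08 in DRF and 0.04 in NRF, 28 mice each, as a description). The part of either cell type in the Etnppl difference was not tested.

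**Figure D2:**
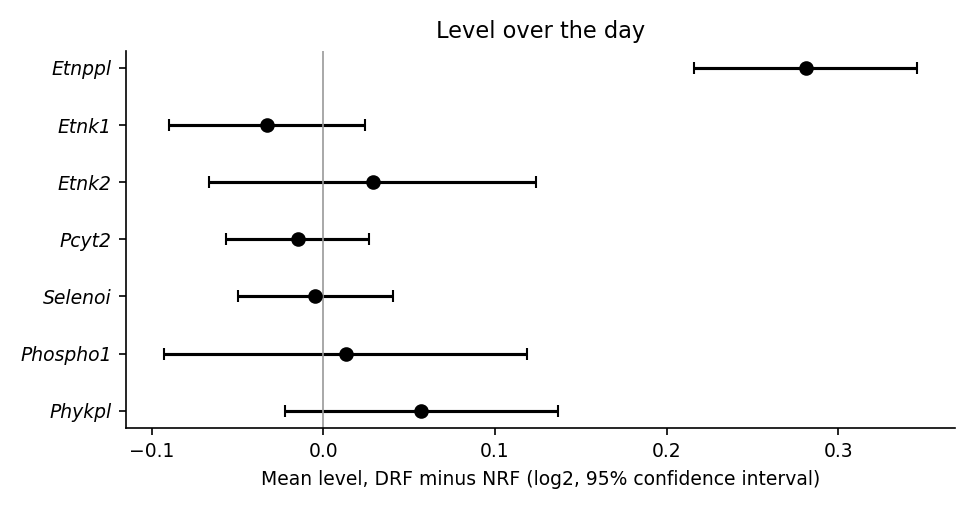
Mean level over the day, DRF minus NRF, on the log2(CPM + 1) scale (horizontal axis) for the 6 genes and the Etnppl paralog Phykpl. Points are limma estimates over 56 mice and bars are 95% confidence intervals. Etnppl lies at 0.28, and the other intervals include 0.

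None of the other 5 members passed the test of the mean level between the regimens. The differences, DRF minus NRF on the log2 scale, were -0.03 for Etnk1 (95% confidence interval -0.09 to 0.02), 0.03 for Etnk2 (-0.07 to 0.12), -0.01 for Pcyt2 (-0.06 to 0.03), -0.005 for Selenoi (-0.05 to 0.04) and 0.01 for Phospho1 (-0.09 to 0.12), with limma adjusted p from 0.502 to 0.925. Their fitted 24-h amplitudes, 0.03 to 0.14, were smaller than those of Etnppl, which was chosen by its rhythm. The amplitude is not the spread of the values, and Phospho1 in DRF ran from a mean of 4.83 CPM at ZT0 to 6.69 CPM at ZT16. The length of a gene here is that behind the deposited values, which need not be the length of any single transcript. Per kilobase of this length, Etnk1 ranked highest of the members, at 35.6 CPM in DRF and 36.3 CPM in NRF. Next were Pcyt2 (17.4 and 17.6), Etnppl (11.9 and 9.86), Selenoi (5.9 and 5.92), Phospho1 (2.91 and 2.87) and Etnk2 (2.42 and 2.36). The reads behind a value were 1786 to 3776 per mouse for Etnppl, 11898 to 17451 for Etnk1, 2070 to 3285 for Pcyt2, 2131 to 2665 for Selenoi, 209 to 462 for Etnk2 and 115 to 266 for Phospho1.

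In the test of the rhythm difference, which 11.1% of the 16085 genes passed, none of these 5 genes did. The limma adjusted p was 0.0611 for Pcyt2, 0.0935 for Selenoi, 0.19 for Etnk2, 0.276 for Etnk1 and 0.562 for Phospho1. Within DRF none was called rhythmic, as against 1.02% of 16245 genes, and within NRF Selenoi (adjusted p = 0.000478) and Etnk1 (adjusted p = 0.00105) were, as against 30.7%. These calls combine JTK_CYCLE and the Lomb-Scargle periodogram over the 28 mice of a regimen. Without replicate 2 neither was called in NRF (adjusted p of the combined test 0.105 for Etnk1 and 0.109 for Selenoi). A gene called in NRF but not in DRF is not thereby shown to differ between them.

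**Figure D3:**
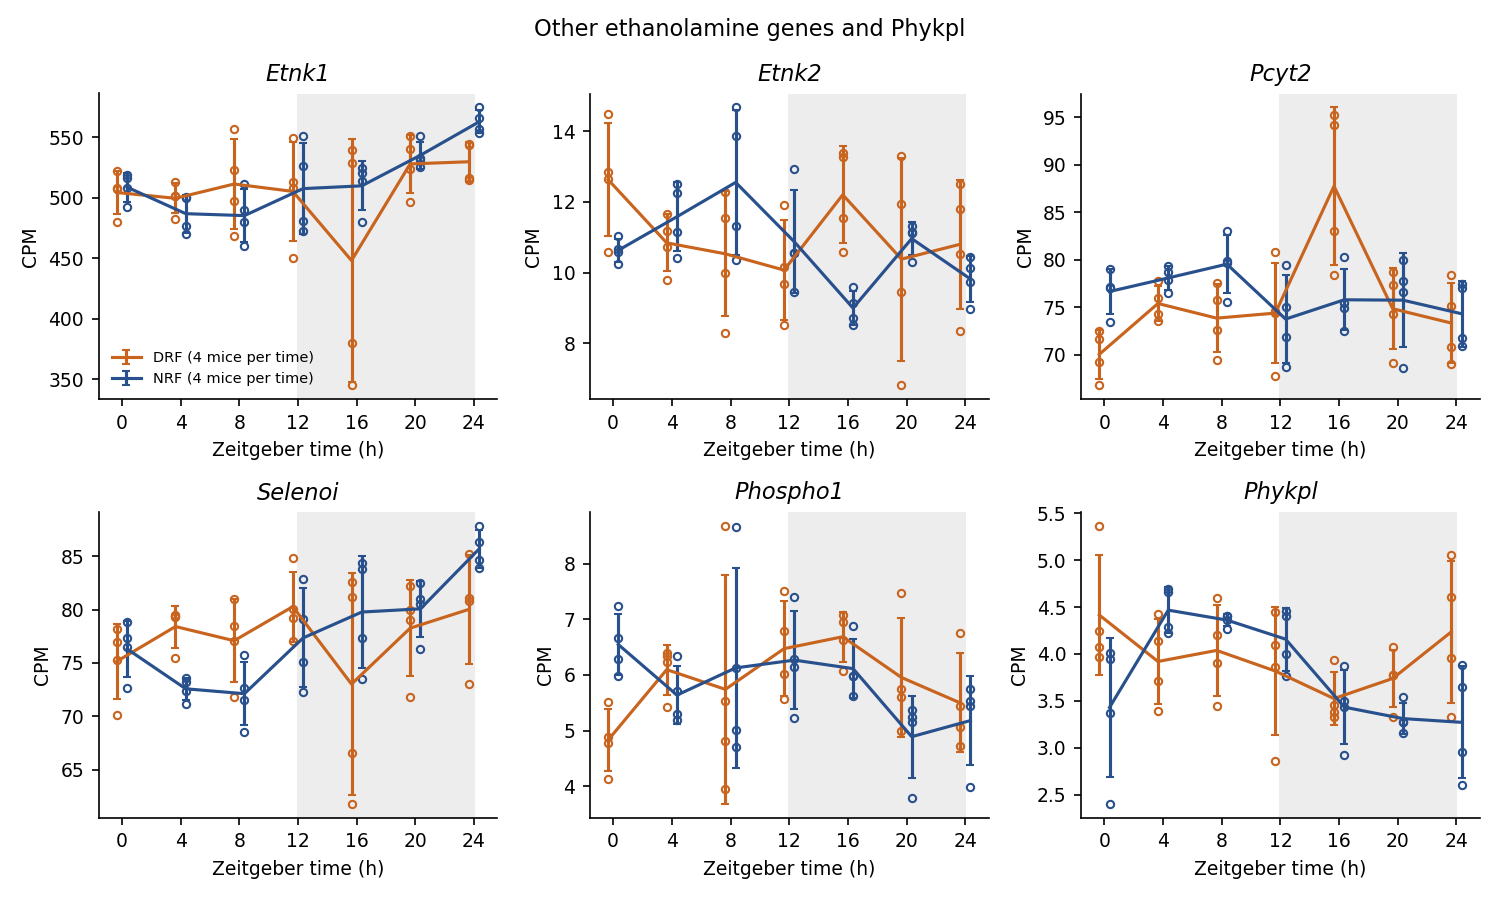
CPM (vertical axes, which do not start at 0) of the other 5 members and of Phykpl against zeitgeber time, with darkness shaded. Circles are single mice, and lines with bars are means ± SD of 4 mice. The DRF bars at ZT16 are wide for Etnk1 (448 ± 100 CPM) and Selenoi (73.0 ± 10.4 CPM) because replicates 3 and 4 are low there.

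The kinases open the pathway. Etnk1, the abundant kinase, was lowest in NRF mice at ZT8 (460, 480, 490 and 512 CPM) and highest at ZT24 (554, 557, 566 and 575 CPM). The ZT24 mice of NRF did not overlap with the ZT0 mice (492, 508, 517 and 519 CPM), although both were taken at the same phase of the light cycle. The same held for 21.7% of all genes tested. In DRF the ZT16 mice fell apart into 345 and 380 CPM and 529 and 539 CPM, and the mice of the other time points lay between 450.3 and 557 CPM. Etnk2, the kinase of low expression here, ranged from 6.81 to 14.5 CPM in DRF and from 8.51 to 14.7 CPM in NRF. At ZT16 its DRF mice (10.6, 11.5, 13.3 and 13.4 CPM) lay above its NRF mice (8.51, 8.73, 9.15 and 9.6 CPM), and at the other 6 time points the regimens overlapped.

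Pcyt2, which makes CDP-ethanolamine, stayed between 66.8 and 83.1 CPM in every mouse except DRF replicates 3 and 4 at ZT16, which were at 94.2 and 95.2 CPM. At ZT0 the DRF mice (66.8, 69.3, 71.6 and 72.6 CPM) were below the NRF mice (73.5, 77.0, 77.1 and 79.1 CPM). Its adjusted p of 0.0611 for the rhythm difference turned on single libraries. It was 0.343 without the ZT16 replicates 3 and 4 of DRF, and 0.0247 without DRF replicate 2 at ZT12.

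Selenoi, the transferase that finishes phosphatidylethanolamine, followed the pattern of Etnk1 in NRF. It was lowest at ZT8 (68.6, 71.5, 72.7 and 75.7 CPM) and ZT4 (71.2, 72.3, 73.2 and 73.6 CPM) and highest at ZT24 (84.0, 84.7, 86.3 and 87.9 CPM), where again no mouse overlapped with ZT0 (72.6, 76.5, 77.3 and 78.8 CPM). At ZT4 its DRF mice (75.5, 79.3, 79.4 and 79.5 CPM) were above its NRF mice. In NRF 21.7% of all genes tested did not overlap between ZT0 and ZT24, and in DRF 9.54% did not.

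Phospho1, the phosphatase, ranged from 3.79 to 8.68 CPM. Its DRF mice at ZT0 (4.14, 4.78, 4.88 and 5.51 CPM) were below its NRF mice (5.99, 6.29, 6.67 and 7.24 CPM), the ranges overlapped at the other time points, and in NRF ZT0 and ZT24 did not overlap. Of the 35 comparisons of a member other than Etnppl at a time point, 5 were without overlap, each of a different member, against 6.34% to 14.5% of all genes at a time point.

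**Figure D4:**
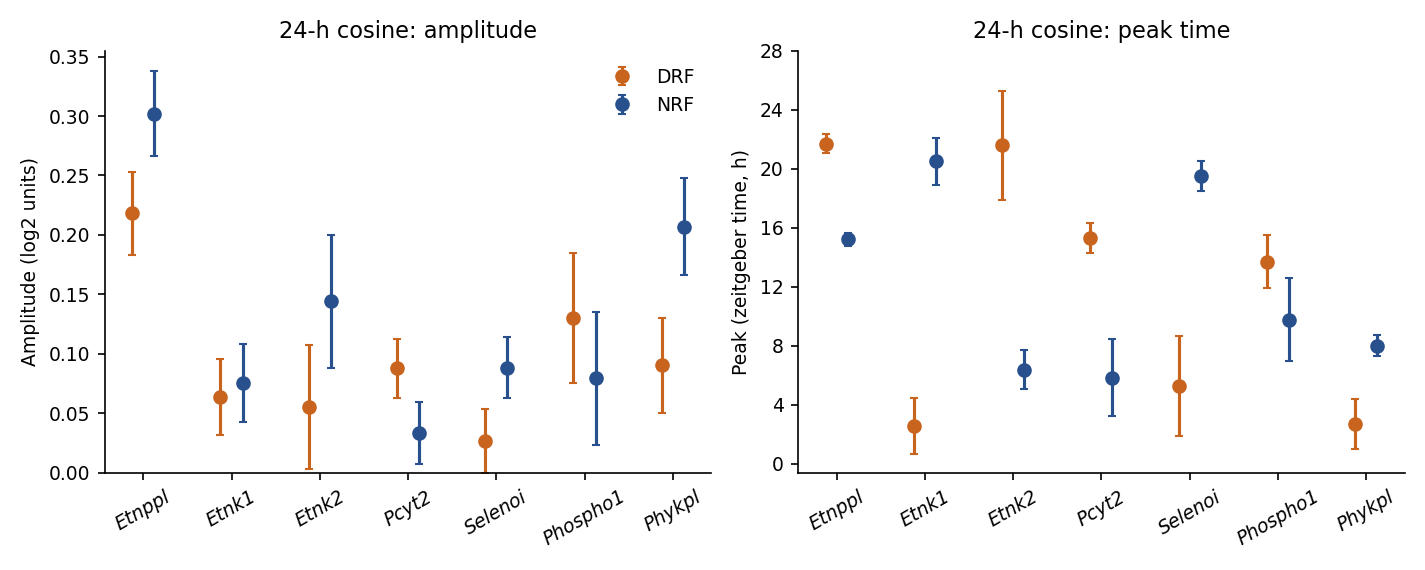
Amplitude (left, log2 units) and peak time (right, zeitgeber time in hours) of the 24-h cosine fitted to log2(CPM + 1), for each gene in DRF and NRF. Points are estimates from 28 mice and bars are ± SE. Etnppl has the largest amplitudes of the 6 genes in both regimens, 0.22 in DRF and 0.30 in NRF.

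The libraries themselves differed in how expression followed gene length, and the members moved with this. For each library a slope of its deviation from the mean of all mice on log2 length was taken over 10089 genes. Replicates 3 and 4 of DRF at ZT16 had slopes of -0.127 and -0.0926 and held the low Etnk1 and Selenoi values and the high Pcyt2 values given above. The median correlation with the rest of the group was 0.969 to 0.982 over all 4 mice of DRF at ZT16, lowest in replicate 4, and 0.987 or more in the other groups. The slopes of the other 54 libraries ran from -0.115 to 0.0885. In NRF the mean slope was -0.0534 at ZT4, -0.0492 at ZT8 and 0.0633 at ZT24. Many other genes share these slopes. Over the 56 mice, the correlation of a gene's level with the slope was 0.82 for Etnk1 (gene length 14151 bases) and 0.77 for Selenoi (13135 bases). The correlation was -0.62 for Pcyt2 (4346 bases), -0.49 for Etnk2 (4566 bases), 0.33 for Etnppl (8262 bases) and -0.27 for Phospho1 (2029 bases). Without replicates 3 and 4 of DRF at ZT16 it was 0.847, 0.72, -0.485, -0.432, 0.393 and -0.212 in the same order.

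With the slope as a covariate in the 24-h cosine model of limma, the NRF rhythm of Etnk1 had an adjusted p of 0.69 and that of Selenoi 0.484. Without the covariate that model gave 0.155 and 0.0267, and without the ZT16 replicates 3 and 4 of DRF it gave 0.0082 and 0.00381. Those DRF libraries enter the NRF test without the covariate only through the spread, which is estimated from both regimens together. The fits with the covariate kept them. The slope varied with time in NRF, so a change with time in these genes and the library trend cannot be told apart. For Etnppl the covariate left a level difference of 0.26 (limma adjusted p = 1.41e-06) and peaks 6.65 h apart, and without the replicates 3 and 4 these were 0.29 (limma adjusted p = 2.51e-07) and 6.21 h. For Etnk1 the covariate gave a level 0.08 lower in DRF (limma adjusted p = 0.00161). In that setting 4159 of the 16085 genes passed the level test, against 1682 without the covariate.

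**Figure D5:**
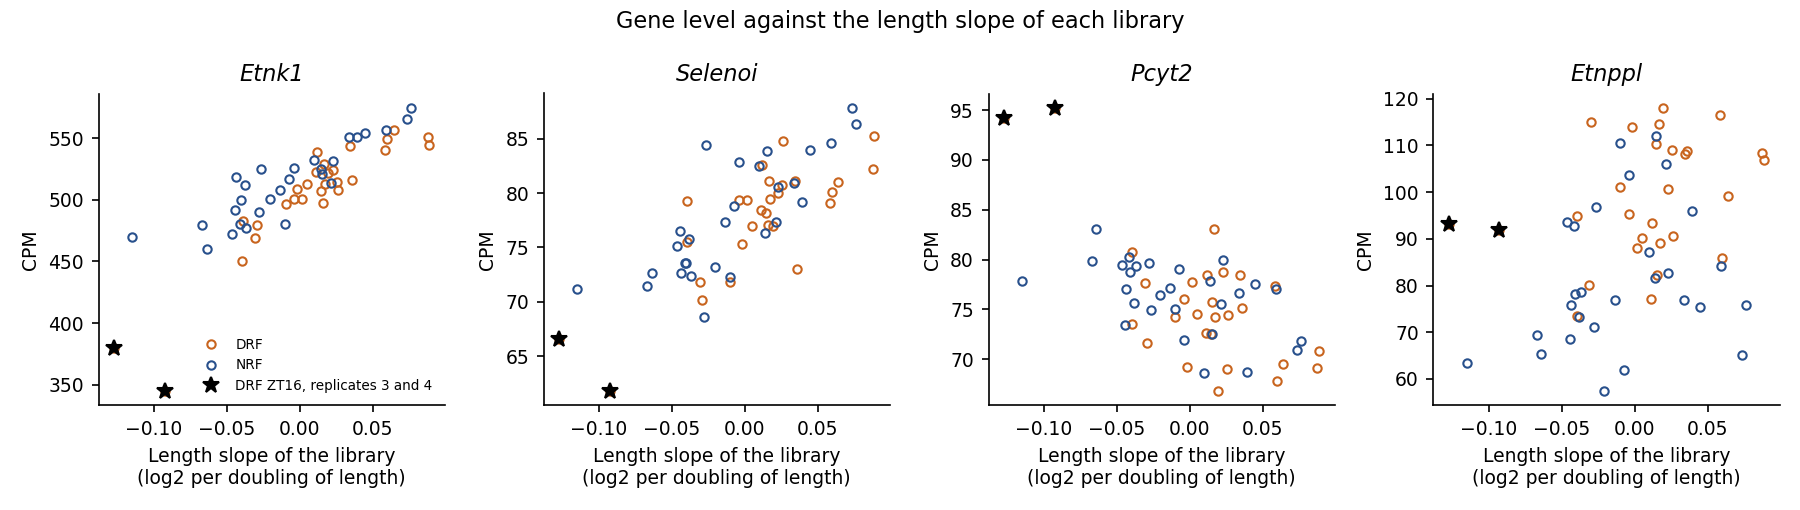
CPM of 4 members (vertical axes, which do not start at 0) against the length slope of each library (horizontal axes, log2 units per doubling of gene length). Circles are the 54 other mice by regimen, and stars are replicates 3 and 4 of DRF at ZT16. Etnk1 and Selenoi rise with the slope (r = 0.82 and 0.77 over 56 mice) and Pcyt2 falls (r = -0.62), whereas Etnppl is scattered (r = 0.33).

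The members did not share the pattern of Etnppl. Over the 14 group means its correlation was 0.12 with Selenoi, -0.01 with Etnk1, -0.07 with Etnk2, -0.08 with Phospho1 and -0.30 with Pcyt2. The genes most like it by this measure were Fzd7 (0.85), a Wnt receptor, Susd6 (0.80), the sulfotransferase Sult1a1 (0.79), Ing5 (0.79), the phospholipid flippase Atp10a (0.77), Rin2 (0.77), Tssk4 (0.77), Mapk4 (0.77), the lipid droplet protein Plin4 (0.76) and Mtfr2 (0.76). Those that ran most against it were the potassium channel interactor Kcnip3 (-0.89), the microglial gene Fcrls (-0.86), Fgfrl1 (-0.86), Ndufaf5 (-0.84) and Gal3st4 (-0.83). The groups share libraries and time, and these values are a description over 14 points.

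Phykpl, the paralog of Etnppl and a lyase of phosphohydroxylysine, was expressed far below it (0.408 against 11.9 CPM per kilobase in DRF). In NRF it was at 4.26 to 4.41 CPM at ZT8 and at 3.16 to 3.55 CPM at ZT20, with a fitted peak at ZT7.99 ± 0.72 h, and in DRF at ZT2.7 ± 1.7 h. Its rhythm differed between the regimens (limma adjusted p = 0.0221, amplitude 0.09 ± 0.04 in DRF and 0.21 ± 0.04 in NRF), and it was called rhythmic in NRF (adjusted p = 0.000808 by JTK_CYCLE and Lomb-Scargle). Its level difference was 0.06 (95% confidence interval -0.02 to 0.14, limma adjusted p = 0.373). Its reads were fractions in all but 3 of 56 mice and it overlaps Hnrnpab on the other strand, so its values are uncertain. The call of a rhythm difference was lost without replicate 1, 3 or 4 (limma adjusted p = 0.109, 0.138 and 0.0902), without ZT0, ZT8, ZT12 or ZT24 (0.0526 to 0.0737) and with time as a factor (0.0588).

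Around these genes, 44 of 45 listed genes of neighbouring steps of lipid metabolism were tested. The rhythm differed for 7 of them (11.1% of all genes tested), and the level was higher in DRF for 3 (5.6% of all genes) and lower for 8 (4.86% of all genes). In NRF 17 were called rhythmic (30.7% of all genes) and in DRF 1 (1.02% of all genes). Their median level difference was -0.01, against -0.002 over all genes. In the choline branch, which runs parallel to that of ethanolamine, 1 of 6 genes differed in rhythm. This was Chka, choline kinase alpha, with an amplitude of 0.03 ± 0.03 in DRF and 0.19 ± 0.03 in NRF (limma adjusted p = 0.00671). Cept1, which makes both phosphatidylcholine and phosphatidylethanolamine, was lower in DRF by limma (-0.13, adjusted p = 0.0186). None of the 4 listed genes that make or convert phosphatidylserine or phosphatidylethanolamine passed either test, Ptdss1 among them. Of the 7 genes that handle sphingosine phosphate, another source of phosphoethanolamine, the phosphatase Sgpp2 was lower in DRF (-0.12, limma adjusted p = 0.0196).

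Among the genes that serve the transfer of phosphoethanolamine to GPI anchors, Pigg differed in rhythm (amplitude 0.03 in DRF and 0.19 in NRF, limma adjusted p = 0.0348). By limma Pigo was higher in DRF (0.07, adjusted p = 0.028) and Pigf lower (-0.11, adjusted p = 0.0415). Of the 4 uptake genes, Slc44a1, a choline and ethanolamine transporter, was lower in DRF (-0.11, limma adjusted p = 0.032). In the supply of diacylglycerol, the lipins Lpin1 (0.08, limma adjusted p = 0.00651) and Lpin2 (0.05, limma adjusted p = 0.0345) were higher in DRF, and the rhythm differed for Lpin2 (limma adjusted p = 0.0281) and Lpin3 (limma adjusted p = 0.0237). Far2, of ether lipid synthesis, was lower in DRF (-0.09, limma adjusted p = 0.049). Of the 8 genes that make or break down N-acylethanolamines and glycerophospho bases, the rhythm differed for Napepld, Faah and Naaa (limma adjusted p from 0.0346 to 0.0387). Napepld (-0.12), Gde1 (-0.06) and Gpcpd1 (-0.13) were lower in DRF, with limma adjusted p from 0.0266 to 0.0498.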

How the data were processed

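RNA of the anterior hypothalamus was sequenced as polyA RNA. The authors mapped reads to GRCm38.p6 with HISAT2 and Bowtie2, counted them per gene with RSEM, normalized them by the trimmed mean of M-values in edgeR and converted them to what they named TPM. The deposited values, treated here as a score, add up to 999333 to 999720 per mouse. Tested on the file, each is log2(CPM + 1) over the length of the gene, brought to that sum (median relative deviation of the steps 2.26e-09), which compresses fold changes. Undoing this gave CPM. Of 17564 genes 15556 resolved into whole reads (within 0.03 in at least 80% of the mice), 1041 into reads with 2 decimals, 776 took an annotated length and 191 had none. The normalized library sizes were 29591267 to 34493342 reads.

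Genes were tested where no fewer than 80% of the mice had a deposited value of 1 or more. The rhythm difference was limma's moderated F test (R 4.3.3, limma 3.58.1) of regimen by 24-h cosine and sine on log2(CPM + 1), and the level difference limma's contrast of the means of the 7 time points. Rhythm within a regimen combined JTK_CYCLE and Lomb-Scargle p-values (20 to 28 h, own Python implementation after MetaCycle) on the deposited values by Fisher's method. All p-values were Benjamini-Hochberg adjusted over all genes tested, with 0.05 as threshold. On simulated data with 200 changed genes of 11763, the rhythm difference test called 190 and the level test 200. Of the other genes they called 17 and 10. The planted changes were near the size of those of Etnppl, larger than those of the other members, and no length trend was planted. How often changes as small as those of the other members would be called was not tested. Mice are separate animals, and the p-values set differences against the spread between animals. The level test takes this spread from within the groups of 4 mice, so variation between groups of the same phase is left out. Between ZT0 and ZT24, 9.54% of genes in DRF and 21.7% in NRF did not overlap.

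The members and lists were chosen with earlier results of these data known. Named were the 6 members, Phykpl, every listed gene past either limma test (otherwise the first of its list) and the 10 genes most and 5 least correlated with Etnppl over the 14 group means. Other pseudocounts, filters, centring, a replicate block, left-out mice and time points and other rhythm models were tried. The listed gene Peds1 was not analysed here. A listed marker gene is not reported here. Promoter sequences come from RefSeq (GRCm38.p6) and positions of genes from GENCODE (GRCm38).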

Additional observations from a re-analysis of the deposited data

Results flagged for a closer look

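Within the groups of 4 mice, 4 of 98 sets of values (7 genes in 14 groups) had a mouse far from the rest by Dixon's test, and chance alone gives about 1 in 20. Etnppl was at 115 CPM in replicate 1 of DRF at ZT16, above the other 3 mice. Selenoi was at 75.5 CPM in replicate 2 of DRF at ZT4, below the other 3. Phospho1 was at 5.43 CPM in replicate 3 of DRF at ZT4 and at 3.79 CPM in replicate 2 of NRF at ZT20, each below its group.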

How the results depend on the processing

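The level difference of Etnppl kept its direction and stayed past the threshold in every alternative run, including each single library left out (0.27 to 0.29), and lay between 0.25 and 0.30 without 1 replicate number. On the compressed scale of the deposited values it was 0.06. The Etnppl peaks were 5.75 to 6.88 h apart without 1 replicate number and 7.51 h without ZT8. Same-numbered mice were not correlated as a rule (8 of 28 pairs above 0.1, median r 0.0193). Whether a replicate number marks a shared batch was not tested. With the replicate block the counts were 1723 for the rhythm difference, 1727 for the level and 636 for the cosine in DRF, with Etnppl at 0.281. The 1783 genes that differed in rhythm were 418 to 1583 without 1 replicate number, up to 2583 (without DRF replicate 2 at ZT20) with 1 library left out, 939 without ZT0 and 1163 without ZT24. The 1682 that differed in level were 387 to 2329, up to 2362 with 1 library left out (DRF replicate 2 at ZT16), 992 without ZT0 and 4159 with the length slope as covariate. Of these calls 53.5% were higher in DRF, as against 72.1% on the deposited scale and 42.5% with the slope. The 166 rhythmic in DRF were 63 to 85 without 1 replicate number, 588 without ZT4, 105 without ZT16, 85 without ZT20, 96 without ZT24, 109 by JTK_CYCLE alone and 646 by the cosine in limma. The 4986 in NRF were 2622 to 3912, and 3041 without ZT8. The cause was not tested.

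Of 1110 alternatives for single genes, 1082 left the call where it was. Without replicate 2 the NRF rhythm was not called for Etnk1 (0.105) or Selenoi (0.109), nor for Selenoi without ZT8 (0.0547). Etnk2 passed the rhythm difference without ZT20 (0.00922) and without DRF replicate 2 at ZT20 (0.0323), and was called rhythmic in NRF without ZT20 (0.00739, against 0.723 with it). Pcyt2 passed it with time as a factor (0.0303), with 12-h terms added (0.0197), without replicate 2 (0.0376), ZT12 (0.0408) or ZT20 (0.038), and without DRF replicate 4 at ZT4 (0.0429), DRF replicate 2 at ZT12 (0.0247) or ZT20 (0.0304) or NRF replicate 1 at ZT16 (0.0414). The left-out single libraries, the DRF replicates 3 and 4 at ZT16 and the slope were chosen after the data were seen.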

Other observations

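Markers of the other cell types in the tissue moved in both directions between the regimens, by the same limma tests. Among the oligodendrocyte genes, the myelin gene Mog was lower in DRF (-0.15, adjusted p = 0.0439), and the rhythm differed for Mog (adjusted p = 0.0382) and Mag (adjusted p = 0.0319). Of 3 precursor genes, Cspg4 was higher in DRF (0.11, adjusted p = 0.0212), Olig1 was lower (-0.10, adjusted p = 0.0265) and Pdgfra differed in rhythm (adjusted p = 0.0482). Of 5 neuronal genes, Rbfox3 was higher in DRF (0.09, adjusted p = 0.0181), and Snap25 (-0.08, adjusted p = 0.0281) and Stmn2 (-0.08, adjusted p = 0.00144) were lower. Of 5 microglial genes, P2ry12 was lower in DRF (-0.13, adjusted p = 0.0242) and differed in rhythm (adjusted p = 0.00925). Of 4 endothelial genes, Flt1 (adjusted p = 0.0177) and Slco1c1 (adjusted p = 0.00984) differed in rhythm. Among the astrocyte genes only Aldh1l1 differed in rhythm (adjusted p = 2.87e-05), with fitted peaks at ZT19.4 in DRF and ZT8.51 in NRF. None of the 4 ependymal and choroid plexus genes (Foxj1 among them) or of the 9 anterior hypothalamus genes (Avp among them) passed either test.

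Within groups, some members varied with each other from mouse to mouse. After each group's mean was taken away, the correlation over 56 mice was 0.80 between Etnk1 and Selenoi, -0.69 between Etnk1 and Pcyt2 and -0.58 between Pcyt2 and Selenoi, and 0.73, -0.65 and -0.51 without replicates 3 and 4 of DRF at ZT16. Etnk2 and Phospho1 ran against each other (-0.50, and -0.51 without these libraries). For Etnppl the values ran from -0.25 (with Pcyt2) to 0.32 (with Etnk1), sizes also seen in pairs of other members, such as -0.30 between Etnk1 and Etnk2. Over the 56 mice Etnk1, Selenoi and Pcyt2 also followed the length slope of the libraries (r = 0.82, 0.77 and -0.62). Variation of these genes with each other and with the library trend cannot be told apart here. Other pairs of genes were not compared, and these values are a description.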
